A study of Mus musculus with 9 samples.

Results

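The 43 genes described here make the machinery that copies DNA and the deoxynucleotides it uses: 11 that license origins and load the helicase, 9 that activate it, fire origins or signal replication stress, 7 of the polymerases and primase, 9 of the sliding clamp, its loader, single-strand binding and strand maturation, 5 of nucleotide synthesis and 2 of chromatin assembly behind the fork. They were chosen by symbol, and all 43 were found among the 24391 genes of a table of normalized counts from RNA sequencing of mouse cardiac ventricles. Mice with stabilized beta-catenin were 15 weeks old, carried Cre under the alphaMHC promoter, which is active in cardiomyocytes, and had lost exon 3 of the beta-catenin gene. That exon holds the sites that mark the protein for degradation. Adult controls were also 15 weeks old and Cre positive, with unaltered beta-catenin. Pups at postnatal day 6 (P6) were wild type, and their labels name no Cre. Each group had 3 libraries, and all mice were C57BL/6. The labels do not say whether libraries came from separate animals, so p-values measure the spread between libraries, which may be technical. In bulk ventricle RNA, fewer cells of a type and less RNA per cell cannot be told apart.

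DNA replication is prepared in G1, when the origin recognition complex, Cdc6 and Cdt1 load the ring of Mcm2 to Mcm7 onto origins. At the start of S phase, Cdc7 with Dbf4 and the cyclin-dependent kinases recruit Cdc45 and the GINS complex and turn this ring into the moving helicase. Polymerase alpha with primase then starts each strand, polymerases epsilon and delta extend it on the Pcna clamp, and Fen1 and Lig1 join the lagging fragments. Many of these genes are switched on together by E2F factors when a cell commits to divide. In the mouse heart, most cardiomyocytes stop dividing in the first days after birth, so these transcripts are used as a sign of cycling cells.

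Letters that E2F factors bind were looked for in the promoters. Of the 43 genes, 35 had a window in RefSeq (build GRCm38.p6) from 250 bases before to 50 after the start, and Pole, Gins1, Prim2, Exo1, Mcm4, Rfc2, Gmnn and Gins2 had none. The letters searched were TTTCCCGC, TTTCGCGC, TTTGCCGC and TTTGGCGC on both strands, and matches may overlap one another. They were found in 14 of 35 of these genes (40%), against 704 of 27025 genes with a window (2.61%). The CCAAT box was present in 54.3% of the 35 and in 41.1% of genes, and the TCF/LEF letters, CAAAG preceded by any pair of A or T bases, in 11.4% and 18.9%. The windows below, 5′ to 3′ on the gene's strand with the E2F letters in capitals, show Mcm5, Mcm3 and Clspn, which rose with stabilized beta-catenin, Mcm6, which holds the letters and did not pass the test, and Rrm2, which rose most and holds none.
Mcm5, chr8:75109259-75109558, plus strand: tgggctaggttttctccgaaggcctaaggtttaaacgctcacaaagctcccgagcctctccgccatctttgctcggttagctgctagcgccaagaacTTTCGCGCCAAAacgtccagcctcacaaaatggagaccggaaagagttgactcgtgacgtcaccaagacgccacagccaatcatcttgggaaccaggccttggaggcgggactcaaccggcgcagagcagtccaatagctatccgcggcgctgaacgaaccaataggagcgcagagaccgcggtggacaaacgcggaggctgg
Mcm3, chr1:20820263-20820562, minus strand: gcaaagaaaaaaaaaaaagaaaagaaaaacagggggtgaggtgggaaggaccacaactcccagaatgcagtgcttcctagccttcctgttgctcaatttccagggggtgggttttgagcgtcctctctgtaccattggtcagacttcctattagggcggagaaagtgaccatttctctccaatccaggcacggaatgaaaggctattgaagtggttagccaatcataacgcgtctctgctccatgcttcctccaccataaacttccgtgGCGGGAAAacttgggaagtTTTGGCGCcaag
Clspn, chr4:126556730-126557029, plus strand: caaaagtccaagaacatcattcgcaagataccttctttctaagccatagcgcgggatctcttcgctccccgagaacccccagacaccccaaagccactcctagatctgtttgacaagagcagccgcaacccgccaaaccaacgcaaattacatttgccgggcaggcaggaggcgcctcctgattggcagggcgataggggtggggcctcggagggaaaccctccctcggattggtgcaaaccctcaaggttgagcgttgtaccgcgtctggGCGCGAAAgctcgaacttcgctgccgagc
Mcm6, chr1:128359656-128359955, minus strand: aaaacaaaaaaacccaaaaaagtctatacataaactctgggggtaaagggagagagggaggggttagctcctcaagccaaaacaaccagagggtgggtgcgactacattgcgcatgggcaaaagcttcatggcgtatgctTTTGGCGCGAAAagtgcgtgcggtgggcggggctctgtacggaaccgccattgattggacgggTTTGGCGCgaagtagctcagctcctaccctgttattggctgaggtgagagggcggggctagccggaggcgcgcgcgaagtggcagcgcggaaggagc
Rrm2, chr12:24708004-24708303, plus strand: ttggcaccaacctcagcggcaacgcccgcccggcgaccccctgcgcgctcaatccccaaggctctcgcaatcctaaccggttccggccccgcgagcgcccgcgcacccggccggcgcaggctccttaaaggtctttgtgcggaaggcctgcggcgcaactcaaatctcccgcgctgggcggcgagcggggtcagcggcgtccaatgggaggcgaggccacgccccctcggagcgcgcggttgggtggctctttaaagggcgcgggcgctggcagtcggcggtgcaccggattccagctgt
In the Mcm5 window and upstream in the Mcm6 window, matches on the opposite strands overlap in 1 run of capitals. Of the genes that rose with stabilized beta-catenin and had a window, 5 of 12 held the E2F letters (41.7%), and of those that did not pass the test, 8 of 22 did (36.4%). For the CCAAT box these shares were 9 of 12 (75%) and 9 of 22 (40.9%), and for the TCF/LEF letters 1 of 12 and 3 of 22. A match describes these letters alone and is no evidence of binding.

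Assigned reads per library were 14965316 to 23236129 with stabilized beta-catenin, 15234366 to 21568022 in adult controls and 7467551 to 7913057 at P6, and the ribosomal RNA precursor Rn45s took 0.378% to 8.40% of them. Axin2, a feedback target of beta-catenin, had 489, 670 and 740 normalized counts in stabilized beta-catenin libraries 1 to 3, against 50.8, 92.0 and 88.6 in adult controls (log2 fold change 3.05, SE 0.26, adjusted p = 0.00189). Ctnnb1, which encodes beta-catenin, did not pass the test (log2 fold change 0.04, adjusted p = 0.964), and counts per gene cannot show the loss of an exon.

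In ventricles with stabilized beta-catenin, 15 of the 43 genes rose above adult control and 0 fell. The test was limma on log2(normalized count + 1) over the 12971 genes that reached 10 normalized counts in 3 or more of the 6 libraries, with Benjamini-Hochberg adjusted p under 0.05. Of all genes tested, 1.49% were called higher and 0.308% lower. No gene of the 43 was lower by edgeR or DESeq2 either, and 0 were lower at an unadjusted p under 0.05. Orc1 missed the filter, so 42 were tested. Of these, Mcm10, Chek1, Clspn and Chaf1b reached 10 normalized counts in no adult control library, and 3 of these 4 were called. With a filter on the mean over all 9 libraries, all 43 were tested and 15 rose. The log2 fold change was positive in 37 of 42, with a median of 0.78 against -0.00 over all genes. Stabilized beta-catenin libraries lay wholly above adult control libraries in 28 of 42, against 9.84% of all genes tested. Leaving out stabilized beta-catenin library 2 or 3, or adult control library 2 or 3, left 5, 5, 6 and 5 genes called. Mcm2, Mcm5, Gins2, Chek1 and Rrm2 were called in every alternative that tested them. An exact permutation test of 3 against 3 libraries cannot fall below 0.1, so these calls rest on limma's moderated variance.

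**Figure D1:**
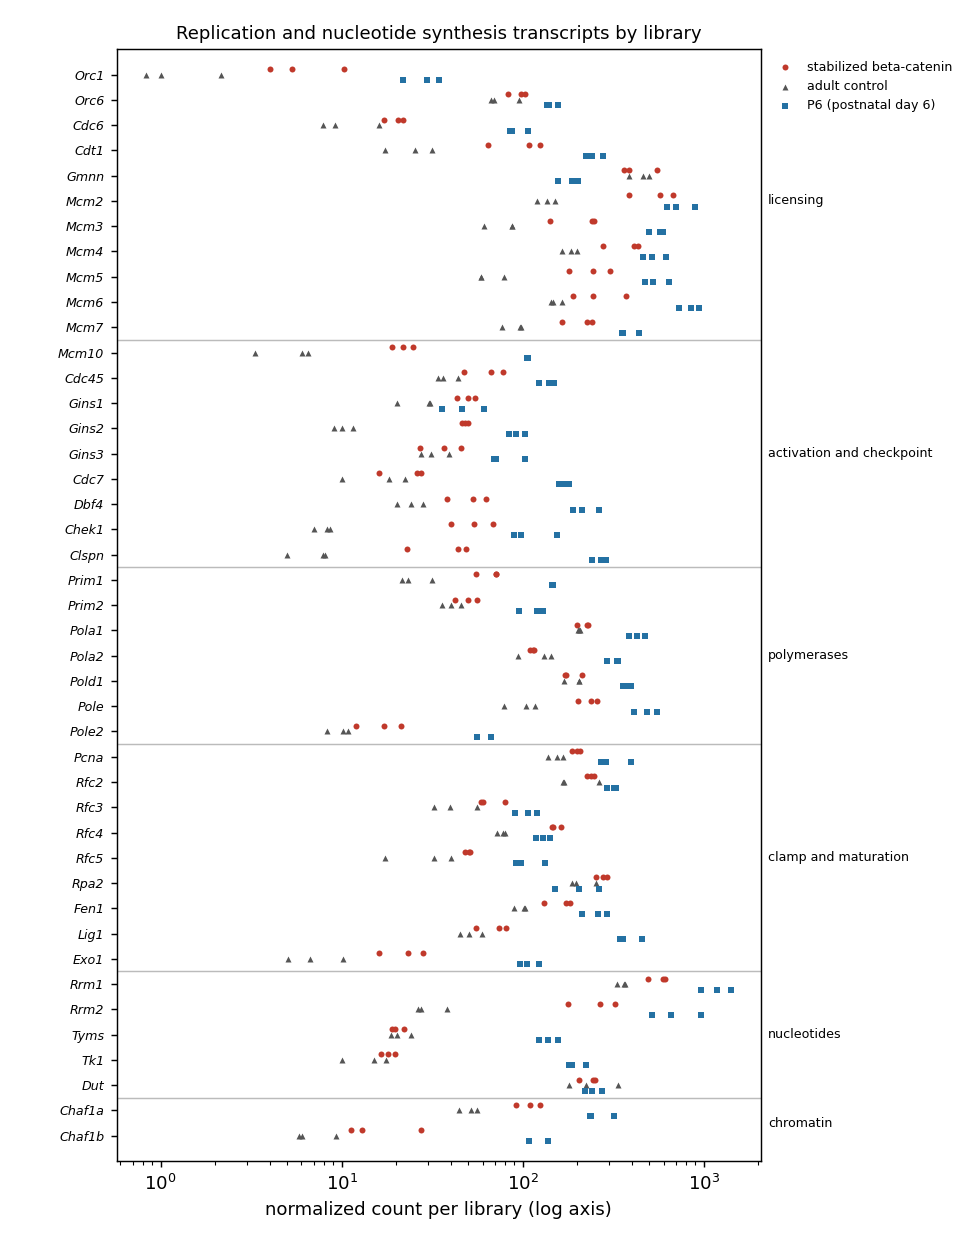
Normalized counts per library on a log axis, with 1 point for each of the 9 libraries and the genes grouped by role. Stabilized beta-catenin points lie to the right of adult control points in 28 of the 42 genes tested, and for most genes both lie to the left of P6, with Gmnn, Rpa2, Dut, Mcm2, Gins1 and Rfc4 as exceptions.

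Among licensing genes, 6 of 10 tested rose: Cdt1, Mcm2, Mcm3, Mcm4, Mcm5 and Mcm7 (median log2 fold change of the 10, 1.10). Mcm2, a subunit of the helicase ring, had 388, 675 and 574 normalized counts in stabilized beta-catenin libraries 1 to 3, against 149.98, 119 and 137 in adult controls (log2 fold change 1.97, SE 0.21, adjusted p = 0.0048). Every stabilized beta-catenin library exceeded every adult control library. Cdt1, which brings the ring to the origin, had 64.1, 125 and 108 normalized counts against 31.7, 25.3 and 17.3 in adult controls (1.94, SE 0.32, adjusted p = 0.0229). Mcm5 had 180, 304 and 244 against 78.3, 58.6 and 59.0 (1.86, SE 0.22, adjusted p = 0.0069). The other ring subunits called were Mcm3 (1.38), Mcm7 (1.20) and Mcm4 (1.00), and the Mcm4 call was also lost with TMM factors and a filter of 50, and those of Mcm3 and Mcm4 without the trend. Only 2 of the 6 calls, Mcm2 and Mcm5, held in each fit without stabilized beta-catenin library 2 or 3 or adult control library 2 or 3.

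The remaining ring subunit, Mcm6, did not pass the test. It had 188, 372 and 245 normalized counts with stabilized beta-catenin, against 144, 164 and 148 in adult controls (log2 fold change 0.76, 95% interval 0.22 to 1.31, adjusted p = 0.207). These libraries did not overlap, and library 2 stood well above libraries 1 and 3. Cdc6, which loads the ring with Orc1 to Orc6, also did not pass (0.84, adjusted p = 0.361), nor did the origin subunit Orc6 (0.30, adjusted p = 0.631). Orc1, the largest origin subunit, had 4.01, 10.3 and 5.33 normalized counts with stabilized beta-catenin, against 0.833, 1.011 and 2.16 in adult controls, from 25 and 5 reads in all. Gmnn encodes geminin, the inhibitor of Cdt1 that prevents repeated licensing. It had 549, 387 and 361 normalized counts with stabilized beta-catenin against 498, 385 and 463 in adult controls, and these libraries overlapped (-0.07, 95% interval -0.50 to 0.36, adjusted p = 0.95).

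Of the helicase activation and checkpoint genes, 4 of 9 rose: Mcm10, Gins2, Chek1 and Clspn (median log2 fold change of the 9, 1.04). Mcm10, Chek1 and Clspn entered the test through stabilized beta-catenin libraries alone, which favours a call of higher. Chek1, the kinase of the replication checkpoint, had 40.1, 53.9 and 68.1 normalized counts with stabilized beta-catenin, against 8.33, 7.08 and 8.64 in adult controls (log2 fold change 2.58, SE 0.29, adjusted p = 0.00515). Clspn encodes claspin, the fork protein that hands the stress signal to Chek1. It had 23.1, 48.8 and 43.9 against 5.0, 8.09 and 7.92 (2.26, SE 0.37, adjusted p = 0.0237). Gins2, a subunit of the active helicase, had 48.1, 49.6 and 46.2 against 9.999, 9.10 and 11.5 (2.13, SE 0.24, adjusted p = 0.00544). Neither Chek1, Clspn nor Gins2 overlapped between the groups. Mcm10, which helps the helicase start, had a log2 fold change of 1.90 (adjusted p = 0.0407). Without stabilized beta-catenin library 2 or 3 or adult control library 2 or 3, 2 of these 4 calls held, those of Gins2 and Chek1.

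The other 5 genes of this role did not pass the test. The GINS subunit Gins1 was at 0.86 (adjusted p = 0.163), with 50.1, 54.8 and 43.3 normalized counts against 30.8, 20.2 and 30.2 in adult controls, which do not overlap. Its partner Gins3 was at 0.14 (adjusted p = 0.912), with overlapping libraries. Cdc45, the third part of the active helicase, was at 0.71 (adjusted p = 0.262). The origin-firing kinase Cdc7 was at 0.46 (adjusted p = 0.708), with 16.0, 27.4 and 26.1 normalized counts against 18.3, 22.2 and 10.1, and its activator Dbf4 was at 1.04 (adjusted p = 0.111). Dbf4 was called higher by DESeq2 and with all 3 groups in 1 fit.

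Of the polymerase and primase genes, 2 of 7 rose, 1 from each of 2 enzymes. Prim1, the catalytic subunit of primase, had 55.1, 71.0 and 71.1 normalized counts with stabilized beta-catenin, against 31.7, 23.3 and 21.6 in adult controls (log2 fold change 1.34, SE 0.23, adjusted p = 0.0307). Pole, the catalytic subunit of the leading-strand polymerase epsilon, had 201, 256 and 237 against 78.3, 116 and 104 (1.22, SE 0.19, adjusted p = 0.0193). In both genes the groups did not overlap. Neither call held without stabilized beta-catenin library 2 or 3 or adult control library 3, and that of Prim1 was also lost without stabilized beta-catenin library 1 or adult control library 2. The partner subunits did not pass the test. Prim2, the large primase subunit, was at 0.27 (adjusted p = 0.697), and Pole2, the second subunit of polymerase epsilon, at 0.71 (adjusted p = 0.442).

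The subunits of polymerases alpha and delta gave fold changes close to 0. Pola1, the catalytic subunit of polymerase alpha, had 200.5, 230 and 227 normalized counts against 208, 201 and 205 (0.09, 95% interval -0.21 to 0.40, adjusted p = 0.867). Its partner Pola2 was at -0.09 (95% interval -0.53 to 0.34, adjusted p = 0.92) and Pold1, the catalytic subunit of polymerase delta, at -0.05 (95% interval -0.41 to 0.31, adjusted p = 0.96). In each of these 3 genes the libraries of both groups overlapped. The intervals exclude a rise of the size fitted for Prim1 or Pole, and the difference between genes was not tested.

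Of the clamp and maturation genes, 1 of 9 rose, and all 9 fold changes were positive (median 0.65). Rfc4, a subunit of the clamp loader, had 147, 162 and 146 normalized counts with stabilized beta-catenin, against 80.0, 77.8 and 72.0 in adult controls (log2 fold change 0.98, SE 0.15, adjusted p = 0.0178). That call was lost without any 1 of the libraries other than adult control library 1. Its fellow loader subunits were at 0.80 (Rfc5, adjusted p = 0.332), 0.65 (Rfc3, adjusted p = 0.33) and 0.28 (Rfc2, adjusted p = 0.658). Exo1, a nuclease of replication and mismatch repair, had 16.0, 28.2 and 23.1 against 6.67, 10.1 and 5.04 (1.52, SE 0.37, adjusted p = 0.106). Its groups did not overlap, at few counts per library, and it was called higher by DESeq2 and with all 3 groups in 1 fit. Pcna, the sliding clamp, was at 0.37 (95% interval 0.04 to 0.70, adjusted p = 0.331), the flap nuclease Fen1 at 0.70 (adjusted p = 0.108, called higher in the same pair of fits as Exo1), the ligase Lig1 at 0.42 (adjusted p = 0.497) and Rpa2, a subunit of the single-strand binding protein, at 0.37 (adjusted p = 0.381).

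Among the nucleotide synthesis genes, 1 of 5 rose, with the largest fold change of the 42. Rrm2, the small subunit of ribonucleotide reductase that is made in S phase, had 177, 268 and 322 normalized counts with stabilized beta-catenin, against 38.3, 26.3 and 27.4 in adult controls (log2 fold change 2.997, SE 0.26, adjusted p = 0.00189). Its large subunit partner Rrm1 had 495, 597 and 610.4 against 363, 331 and 369 (0.67, SE 0.14, adjusted p = 0.053). The Rrm1 libraries did not overlap, and it was called higher by edgeR, by DESeq2, with all 3 groups in 1 fit and without adult control library 1.

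The thymidylate genes did not pass the test. Tyms, which makes thymidylate, had 22.1, 19.7 and 19.0 normalized counts against 24.2, 20.2 and 18.7 (log2 fold change -0.05, 95% interval -0.63 to 0.53, adjusted p = 0.978). Tk1, the thymidine kinase of S phase, had 18.04, 19.7 and 16.6 against 17.5, 15.2 and 10.1 (0.35, 95% interval -0.35 to 1.06, adjusted p = 0.741). Dut, which keeps uracil out of DNA, was at -0.03 (95% interval -0.56 to 0.49, adjusted p = 0.987). In all 3 the groups overlapped.

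Of the pair of genes for chromatin assembly factor 1, which places histones behind the fork, the large subunit Chaf1a rose. Chaf1a had 92.2, 124 and 110.2 normalized counts against 51.7, 44.5 and 56.2 in adult controls (log2 fold change 1.08, SE 0.19, adjusted p = 0.0312). Chaf1b had 13.0, 27.4 and 11.3 against 5.83, 6.07 and 9.36 (1.10, SE 0.42, adjusted p = 0.33), with library 2 far above libraries 1 and 3. The call for Chaf1a was lost without stabilized beta-catenin library 2 or 3 or adult control library 2 or 3.

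**Figure D2:**
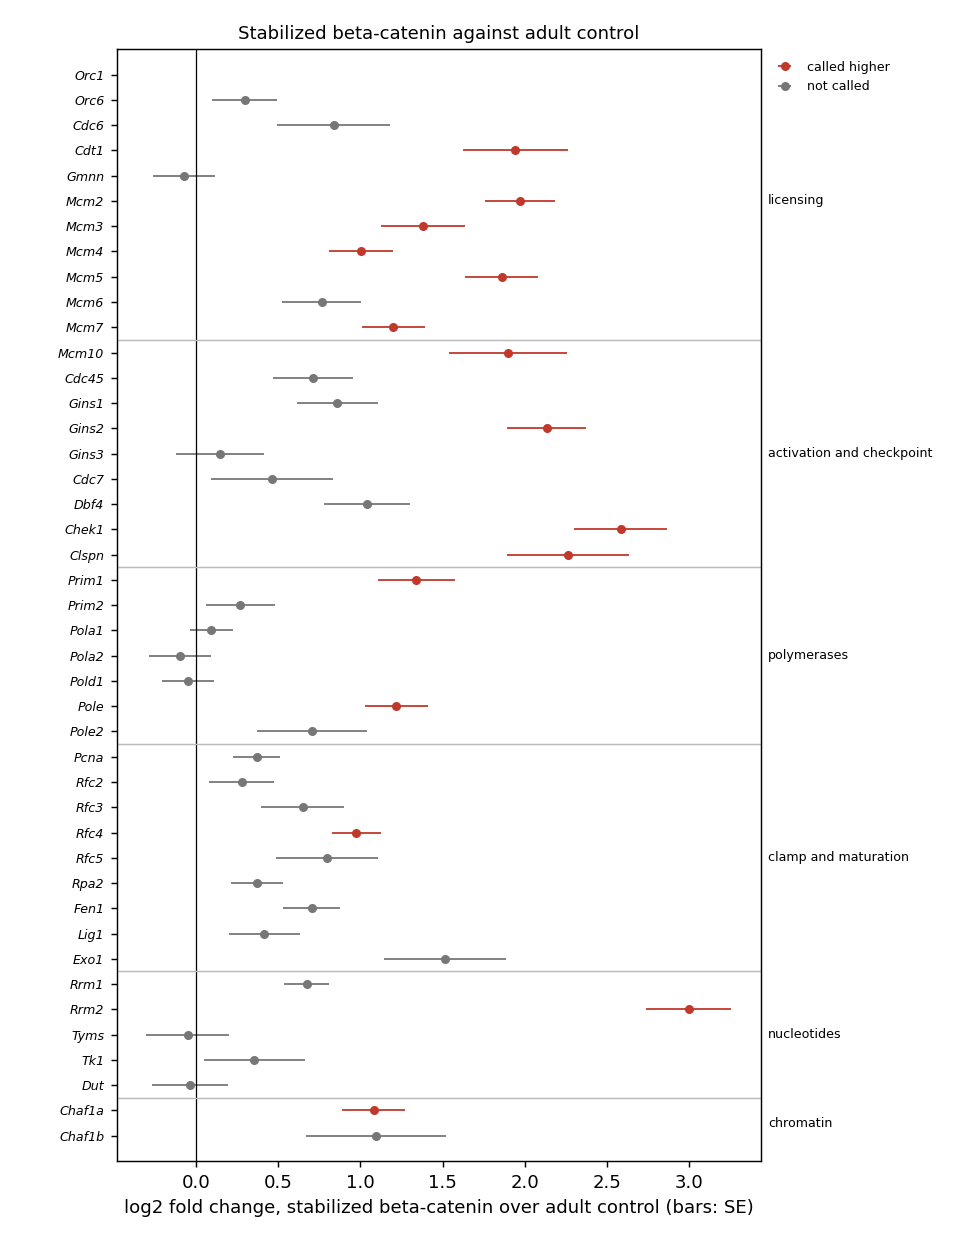
Log2 fold change with its standard error, stabilized beta-catenin over adult control, for the 42 genes tested, grouped by role, from limma on 3 libraries a group. Genes called higher are red and run from Rfc4 at 0.98 to Rrm2 at 2.997, and the others are grey.

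The stabilized beta-catenin libraries differed among themselves in these genes. Library 1 was the lowest of its group in 31 of 43 genes and library 2 the highest in 29. The sum of normalized counts over the 43 genes was 5398 to 6875 with stabilized beta-catenin, against 3475 to 4128 in adult controls and 11026 to 14049.5 at P6. Among P6 libraries, library 3 was the highest in 35 of 43 genes, with the sum of 14049.5. Axin2 was also lowest in stabilized beta-catenin library 1, and whether that bears on these genes was not tested.

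In adult controls, 40 of the 43 genes were lower than at P6 and 1 was higher. Of all 13398 genes tested, 31.2% were called lower and 31.3% higher. The median log2 fold change of the 43 was -2.34, against -0.02 over all genes. Adult control libraries lay wholly below P6 libraries in 40 of 43, against 35.6% of all genes tested. The filter was reached by P6 libraries alone in 5 genes (Orc1, Mcm10, Chek1, Clspn and Chaf1b), and all 5 were called lower. With a filter on the mean over all 9 libraries, 40 were lower and 1 was higher. Under total-count scaling the median of all genes was -0.44, with 2316 called higher and 6388 lower in place of 4198 and 4182. The same number of these genes was called in each direction, and their median was -2.77. Relative to all genes, their median was -2.33 under either scaling. Rescaling a library shifts all genes nearly alike, so that match was fixed in advance and is no check. Adult control and P6 differ in age, in Cre and in the set the libraries belong to, and these cannot be told apart.

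The lowest of the 43 in adult controls relative to P6 was Clspn, at 5.0, 8.09 and 7.92 normalized counts, against 271, 243 and 289.6 at P6 (log2 fold change -5.09, SE 0.23, adjusted p = 1.2e-06). Rrm2, at 38.3, 26.3 and 27.4 against 518, 656 and 967, followed (-4.47, SE 0.25, adjusted p = 2.48e-06). Mcm10 was at -4.13, Chaf1b at -3.90, Exo1 at -3.77, Tk1 at -3.73, Orc1 at -3.69 and Chek1 at -3.63. Clspn, Mcm10, Chaf1b, Orc1 and Chek1 entered this test through P6 libraries alone, which favours a lower call. By role, the median was -3.15 for helicase activation and checkpoint genes, -3.12 for the pair of chromatin assembly genes, -2.67 for nucleotide synthesis, -2.45 for licensing, -1.47 for polymerases and primase and -1.32 for clamp and maturation genes.

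The exceptions were Gmnn, Rpa2 and Dut. Gmnn was higher in adult controls, with 498, 385 and 463 normalized counts against 188, 158 and 202 at P6 (log2 fold change 1.29, SE 0.16, adjusted p = 1.35e-04). Rpa2 had 255, 188 and 196 against 151, 204 and 263 (0.07, adjusted p = 0.789), and Dut had 336, 222 and 180.0 against 221, 241 and 273 (-0.04, adjusted p = 0.891). Both overlapped P6. The call for Gins1 (-0.78, adjusted p = 0.0363) was lost in 7 alternatives and that for Rfc2 (-0.67, adjusted p = 0.0138) in 2, and the other 39 calls held in every alternative that tested them.

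With stabilized beta-catenin, the 43 genes reached a median of 45.0% of the P6 mean, against 19.3% in adult controls. The share is 100 times the mean normalized count over the P6 mean. Its median over the 43 genes was 35.2%, 50.3% and 47.4% in stabilized beta-catenin libraries 1 to 3, against 20.3%, 19.5% and 18.5% in adult controls. The libraries of the 2 adult groups did not overlap. Over all genes tested the median share was 100.1% and 99.7%, which the normalization itself holds near 100%. At least 50% of the P6 mean was reached by 15 genes with stabilized beta-catenin, against 8 in adult controls, and 6 against 22 stayed below 20%. With total-count scaling the medians were 34.0% and 14.4%, and without P6 library 3, which enters both shares, 48.5% and 21.5%. Both shares have the same P6 mean below the line, so they are given side by side without a test of their own.

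**Figure D3:**
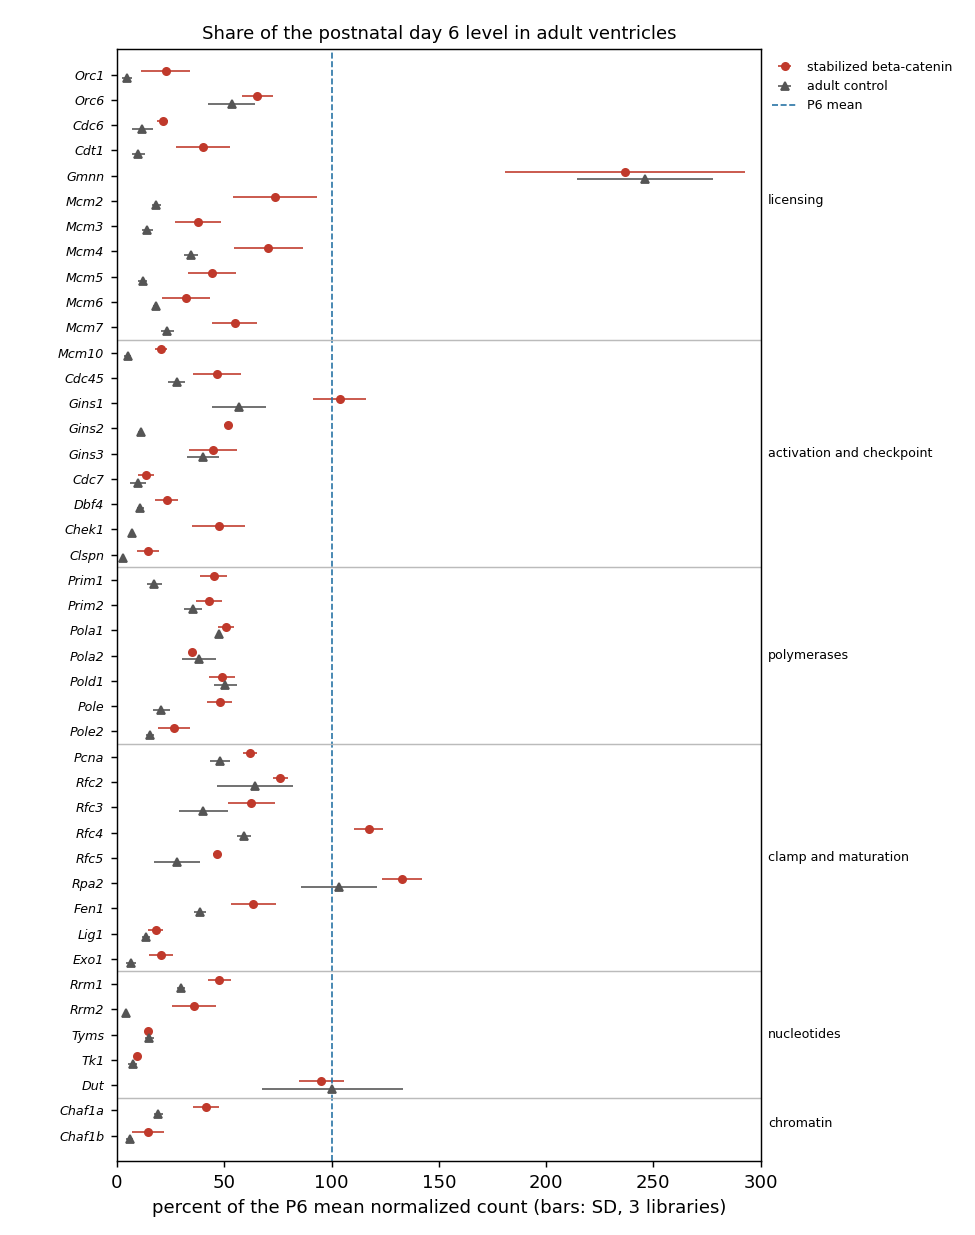
Mean normalized count as a percent of the P6 mean for each of the 43 genes, with the SD over 3 libraries, for stabilized beta-catenin and adult control. The dashed line marks the P6 mean, which Gmnn, Rpa2, Rfc4 and Gins1 pass with stabilized beta-catenin.

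Against P6 itself, 37 of the 43 genes were lower with stabilized beta-catenin, and 2 were higher. Of all 13367 genes tested, 35.8% were called lower and 36.5% higher. The median log2 fold change was -1.14, against 0.00 over all genes. Under total-count scaling these medians were -1.54 and -0.40. Relative to all genes, the median of the 43 stayed at -1.14, which rescaling of libraries nearly fixes in advance. That scaling gave 2944 higher and 6850 lower of all genes, in place of 4882 and 4784. Libraries lay wholly below P6 in 37 genes, against 38.3% of all genes. The 4 that did not pass the test were Mcm2, Gins1, Rfc4 and Dut. Mcm2 reached 73.7% ± 19.7 of the P6 mean (SD, n = 3), against 18.3% ± 2.08 in adult controls, and its library 2, at 675, lay within the P6 range of 625 to 893 (log2 fold change -0.46, SE 0.19, adjusted p = 0.0542). It was called lower than P6 in 5 alternatives, among them DESeq2 and total-count scaling. Of the calls below P6, that of Mcm4 was lost in 4 alternatives and that of Rfc2 with all 3 groups in 1 fit. Of all 39 calls in either direction, 36 held in every alternative that tested them.

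The highest shares belonged to Gmnn, Rpa2 and Rfc4. Gmnn stood at 237% ± 56.0 with stabilized beta-catenin, against 246% ± 31.7 in adult controls. Rpa2, at 254, 291 and 276 normalized counts against 151, 204 and 263 at P6, reached 133% ± 9.14 (log2 fold change 0.44, adjusted p = 0.048). Its libraries overlapped P6, and 10 alternatives lost the call. Without stabilized beta-catenin library 2 or 3, or P6 library 1 or 2, 1 gene was higher than P6. Rfc4 reached 117% ± 6.81, against 59.3% ± 3.20 in adult controls. Its 147, 162 and 146 normalized counts lay above the 118, 129 and 141 of P6 without passing the test (0.23, adjusted p = 0.139). Its difference from P6 depended on the scaling, at 0.33 and called higher with TMM factors (adjusted p = 0.045) and at -0.17 with total-count scaling.

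The lowest shares belonged to Tk1, Cdc7 and Clspn. Tk1 reached 9.19% ± 0.784, against 7.23% ± 1.92 in adult controls, with 186, 181 and 224 normalized counts at P6. Cdc7 reached 13.6% ± 3.64, against 9.89% ± 3.64, and its P6 libraries were at 159, 181 and 172. Clspn reached 14.4% ± 5.10, against 2.61% ± 0.648. Unlike Tk1 and Cdc7, Clspn had passed the test against adult control.

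Shares also varied among genes that were low in adult controls. Rrm2 reached 35.8% ± 10.2, against 4.30% ± 0.934, and Chek1 47.5% ± 12.3, against 7.05% ± 0.728. Chaf1b, by contrast, reached 14.6% ± 7.48, against 5.99% ± 1.67, and Tyms 14.6% ± 1.16, against 15.1% ± 2.02. Polymerase delta's Pold1, not among these low genes, was at 48.9% ± 6.14, against 50.5% ± 5.43 in adult controls. By role, the median share was 44.3% against 18.1% for licensing, 44.8% against 10.9% for activation and checkpoint, 45.0% against 35.3% for polymerases, 62.7% against 40.2% for clamp and maturation, 35.8% against 15.1% for nucleotide synthesis and 27.9% against 12.6% for chromatin assembly. Whether roles differ in their share was not tested.

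**Figure D4:**
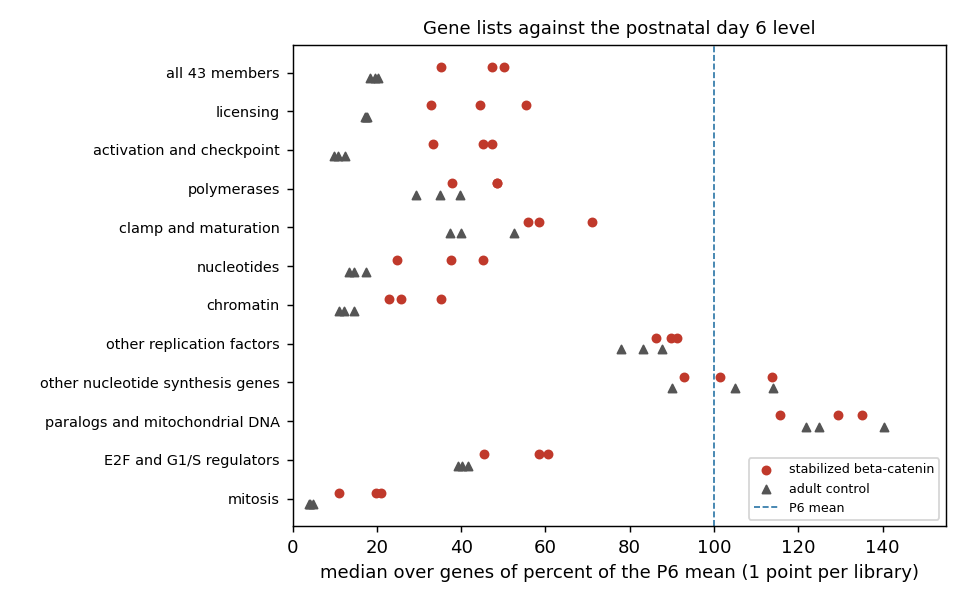
Median over genes of the percent of the P6 mean, with 1 point per library, for the 43 genes, their roles and 5 other gene lists, in stabilized beta-catenin and adult control libraries. The 43 genes sit at 35.2% to 50.3% with stabilized beta-catenin against 18.5% to 20.3% in adult controls, while the paralogs and other nucleotide genes sit near or above the dashed P6 line in both.

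Other genes of the pathway were listed beside the 43. Of 29 other replication factors tested, 2 rose with stabilized beta-catenin and 0 fell (median log2 fold change 0.23). These were Dtl, an adaptor of the ligase that destroys Cdt1 in S phase, at 41.1, 104 and 90.1 normalized counts against 8.33, 13.1 and 15.8 in adult controls (2.50, SE 0.39, adjusted p = 0.02), and Uhrf1, which guides DNA methylation to new strands (1.76, adjusted p = 0.0121). Dtl missed the threshold without stabilized beta-catenin library 2 or 3 or adult control library 2 or 3, and Uhrf1 without stabilized beta-catenin library 2 or 3. In adult controls against P6, 14 of 30 of this list were lower and 2 higher, against 31.2% and 31.3% of all genes. In this list 1 was higher without any 1 P6 library, and 0 were higher with total-count scaling. Their median share of the P6 level was 89.4%, against 85.1% in adult controls.

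Of 25 other nucleotide synthesis genes, 1 rose and 0 fell (median 0.07). It was Prps2, which makes the ribose phosphate from which nucleotides are built, at 1805, 1299 and 1630.2 normalized counts with stabilized beta-catenin against 414, 533 and 477 in adult controls (log2 fold change 1.73, SE 0.16, adjusted p = 0.00301). At P6 it had 408, 454 and 487, so it stood at 351% of P6 with stabilized beta-catenin against 105% in adult controls. Of 15 paralogs outside S phase and genes of mitochondrial DNA upkeep, 0 were called in limma's test against adult control (median -0.12), 0 by edgeR and 0 by DESeq2, with 1 at an unadjusted p under 0.05. In adult controls 7 of them were higher and 3 lower than at P6, against 31.3% higher and 31.2% lower of all genes. With total-count scaling 3 were higher and 5 lower, against 2316 and 6388 of all 13398 genes. Rrm2b, the reductase subunit of resting cells, was at 868, 622 and 601 against 581, 569 and 678 (0.18, adjusted p = 0.775), and in adult controls it was higher than at P6 (1.47, adjusted p = 2.6e-05). Tk2, the mitochondrial thymidine kinase, was at -0.12 against adult control (adjusted p = 0.828).

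Of 27 E2F, pocket protein and G1/S regulators, 5 rose and 0 fell (median log2 fold change 0.21). E2f1, an activating E2F, had 58.1, 103 and 128 normalized counts with stabilized beta-catenin, against 9.999, 8.09 and 13.0 in adult controls (3.05, SE 0.33, adjusted p = 0.00506), and 174, 168 and 239 at P6. Ccnd2, a D-type cyclin, had 13039.9, 13679.5 and 20311 against 1809.8, 3787 and 3805 (2.37, SE 0.31, adjusted p = 0.0104), which is 331% ± 85.0 of P6 against 66.2% ± 24.2. Ccna2, the S phase cyclin, was at 2.17 (adjusted p = 0.00427), and E2f8 and Ccne2 were the others called. Those 2 missed the threshold without stabilized beta-catenin library 2 or 3 or adult control library 3. Of 6 cell cycle inhibitors tested, 0 were called in limma's test (median 0.33), 0 by edgeR and 0 by DESeq2, with 2 at an unadjusted p under 0.05. Of 24 mitosis genes, 15 rose and 0 fell (median 1.87), led by the cyclin Ccnb1 (3.15), the spindle protein Prc1 (2.50) and the kinase Cdk1 (2.47). Mki67, a marker of cycling cells, was at 1.69 (adjusted p = 0.0333) and at 12.0% ± 4.04 of P6, against 3.66% ± 1.03 in adult controls. The mitosis list stood at a median of 17.3% of P6, against 4.54%, and all 24 were lower in adult controls than at P6. Without stabilized beta-catenin library 2 or 3, 2 and 0 mitosis genes passed the test, and without adult control library 2 or 3, 8 and 5 did.

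Cell type markers were measured beside these genes. In stabilized beta-catenin against adult control, 0 of the 42 markers tested passed limma's test, 0 passed edgeR's, and DESeq2 called 1 higher and 4 lower. Of them, 2 were higher and 9 lower at an unadjusted p under 0.05. The lists were cardiomyocyte (8 tested, median log2 fold change -0.15), endothelial (8, -0.30), fibroblast (7, 0.08), mural (6, -0.28), macrophage (8, -0.22), lymphocyte (1) and erythroid (4, -2.25). Summed normalized counts of the cardiomyocyte list were 1004900 to 1084730 with stabilized beta-catenin, against 1141700 to 1233710 in adult controls and 540721 to 620667 at P6, so the labelled tissue showed its defining markers. The endothelial sums were 9283 to 12234, against 12406 to 16931 in adult controls and 22276 to 26230.3 at P6, the macrophage sums 2755 to 3398, against 2899 to 3956 and 894 to 1009, and the fibroblast sums 15999 to 17001, against 12698 to 14097 and 29231 to 38195. Erythroid sums were 95.8 to 367, against 477 to 788 and 789 to 988, with Hbb-b1 at 0 in every library, and granulocyte sums 5.93 to 50.1, against 8.09 to 13.0 and 37.6 to 166, the last in P6 library 3. Against P6, 5 of 8 cardiomyocyte (8 without adult control library 1) and 8 of 8 macrophage markers were higher in adult controls. Lower there were 7 of 8 endothelial (4 without P6 library 1 or 2), 3 of 4 erythroid and 2 of 2 granulocyte markers. At summed counts of 8.09 to 13.0 in adult controls, the granulocyte markers passed the filter mainly through P6 libraries, which favours a lower call. Of 7 fibroblast markers 3 were lower and 1 higher, and of 6 mural markers likewise 3 and 1, against 31.2% lower and 31.3% higher of all genes. The part of these cell types in the difference of the 43 genes was not tested.

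The counting leaves some values uncertain. Exons of 14 of the 43 genes overlap those of another gene in GENCODE M21, among them Chaf1a, Gins2, Mcm7, Pole and Rfc4 of the genes that rose, and the strand setting is not given in the sources used here. Of the overlapping partners tested, 0 passed limma's test against adult control. Other partners were not tested, among them Gm15792, the only partner found for Pole. Pcna and Tyms have annotated pseudogenes, with which they may share reads.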

How the data were processed

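RNA from cardiac ventricles was sequenced in 9 libraries, grouped by the labels' age and genotype, and the adult libraries are marked there as a re-analysis. The submitters' processing notes name Bowtie2 2.0, DESeq2 and mouse build mm9, and htseq-count is named in the file headers. The annotation and strand setting are not given in the sources used here. The authors deposited a signal per gene, a normalized count that equals the read count divided by 1 DESeq2 size factor per library. For P6 they also deposited the count of each gene. Dividing out the size factors gave back whole reads (100% of values whole within 0.001), which at P6 equalled the deposited counts in 24364 of 24364 genes matched by name. Normalized counts are not per length, so levels were compared within a gene only.

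Each comparison used its 6 libraries. A gene had to reach 10 normalized counts in 3 or more of them. The test, on log2(normalized count + 1), was limma 3.58.1 (intensity trend, two-sided, R 4.3.3), Benjamini-Hochberg adjusted over all genes tested at 0.05. Fold changes are on that log2 scale, which understates changes of low genes. The 43 genes and all lists were chosen with earlier results of these data known. Every library is given for the 2 genes of each role with the largest change (1 for roles under 6 genes) and for the 3 highest and 3 lowest shares of P6, and other values printed were picked after they were seen. Of other lists, up to 3 called genes with the largest change are named, besides Rrm2b, Tk2, E2f1, Mki67, Ctnnb1 and Axin2, and E2f8 and Ccne2 were named after their values were seen. Gene symbols Twnk, Emr1, Ahsp and Ly6g found no row.

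The procedure was tested on simulated data with 67, 67 and 66 genes changed by 1.5-fold, 2-fold and 4-fold. For stabilized beta-catenin against adult control it recovered 10.4%, 65.7% and 98.5% of them (9.38% of calls false). For adult control against P6 the values were 11.9%, 67.2% and 100% (7.03%). For stabilized beta-catenin against P6 they were 47.8%, 89.6% and 100% (7.06%). Genes averaging under 50 normalized counts were never among those changed, and the rates were not split by count level. The rates therefore do not cover genes with few counts and may overstate recovery for them. In stabilized beta-catenin against adult control, Chek1, Clspn, Tk1 and Tyms are such genes. Alternatives were pseudocounts of 0.5 and 5, other filters, TMM factors, total-count scaling, geometric means for the share, a replicate block, a joint fit of all 3 groups, no trend in limma, the whole reads in edgeR 4.0.16 or DESeq2 1.42.0, and leaving out each library.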

Additional observations from a re-analysis of the deposited data

How the results depend on the processing

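Of the 43 genes, the number higher with stabilized beta-catenin than in adult control was 15, between 10 of 25 tested (filter of 50) and 19 (DESeq2, or all 3 groups in 1 fit) with all libraries, and 5 to 16 with 1 library left out. Over all genes the number higher was 193, with 363 by DESeq2, 333 with all 3 groups in 1 fit, and 67, 56, 114 and 88 without stabilized beta-catenin library 2 or 3 or adult control library 2 or 3. The number lower was 40, with 201 and 161 in those 2 fits and 5 to 142 with 1 library left out. For adult control against P6 the median log2 fold change of -2.34 was -2.23 with a pseudocount of 5, -2.25 with TMM factors, -2.77 with total-count scaling and -2.42 to -2.20 with 1 library left out. For stabilized beta-catenin against P6 the median of -1.14 was -1.54 with total-count scaling. The number higher there was 2, with 3 by TMM factors, and 1 with no filter, total-count scaling, limma without trend, edgeR, DESeq2 and all 3 groups in 1 fit, and 1 to 2 with 1 library left out. The median share of P6 was 34.0% with stabilized beta-catenin and 14.4% in adult controls with total-count scaling, 20.6% in adult controls with TMM factors, and 42.7% to 50.02% and 18.2% to 21.5% with 1 library left out. The replicate block left 12 genes higher than adult control, without Mcm10, Prim1 and Chaf1a, and Mcm2 was then lower than P6 (adjusted p = 0.0101). Deviations of same-numbered libraries correlated at 0.21, -0.12 and 0.12 between the adult groups, and those of differently numbered libraries at -0.41 to 0.44. With 3 libraries a group, these values cannot show whether the numbers pair the samples.

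Log2 fold changes close to 0 turned sign in some settings. With 1 library left out, the range against adult control was -0.025 to 0.34 for Gins3, -0.23 to 0.21 for Dut, -0.26 to 0.047 for Gmnn, -0.15 to 0.0048 for Pold1, -0.27 to 0.027 for Pola2 and -0.12 to 0.051 for Tyms. For adult control against P6 it was -0.29 to 0.16 for Dut and -0.13 to 0.27 for Rpa2, and Dut was also at 0.059 with TMM factors, 0.050 with edgeR and 0.0091 with DESeq2, and Rpa2 at -0.35 with total-count scaling. For stabilized beta-catenin against P6 it was -0.14 to 0.022 for Dut and -0.11 to 0.27 for Gins1, and Dut was also at 0.022 with TMM factors, Gins1 at -0.32 and Rfc4 at -0.17 with total-count scaling. The cause of each change was not tested. Genes under about 10 normalized counts in a group, such as Orc1, are limited by counting.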

Other observations

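Some genes outside the replication lists stood above the P6 level with stabilized beta-catenin. Prps2 had 1805, 1299 and 1630.2 normalized counts with stabilized beta-catenin, against 408, 454 and 487 at P6 (log2 fold change 1.80, adjusted p = 1.1e-06). Ccnd2 was also higher than at P6 (1.70, adjusted p = 6.07e-06), while Ccne2, the cyclin of the G1/S transition, did not pass the test (-0.13, adjusted p = 0.457) and reached 91.0% ± 9.22 of the P6 mean, against 37.7% ± 5.51 in adult controls. Ccna2, the cyclin of S phase, reached 20.1% ± 5.07, against 4.32% ± 0.54 in adult controls, and E2f1 49.7% ± 18.3, against 5.35% ± 1.27 (SD, n = 3 each).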
